A study of Mus musculus with 22 samples.

Results

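The genes described here code for the NFAT transcription factors (*Nfatc1*, *Nfatc2*, *Nfatc3*, *Nfatc4* and *Nfat5*), for subunits of the phosphatase calcineurin (*Ppp3ca*, *Ppp3cb* and *Ppp3r1*) and for the calcineurin regulators *Rcan1* and *Rcan2*. These 10 genes were taken by symbol from a table of 23453 gene symbols and followed through 22 single mouse astrocytes. The astrocytes came from the cortex of C57BL/6 pups of postnatal day 0 to 1, carried no transgene or deletion that the labels name, and were grown as primary cultures. All cultures had been shaken and treated for 12 h with 10 µM cytosine arabinoside against other cell types, and serum was withdrawn 24 h before the recordings. Each cell was loaded with the calcium dye Fluo-4, exposed to EtOH, given 100 µM ATP as the reference signal, and collected by pipette once its calcium response had been classified. The response was sustained in 6 cells (S-type), transient in 6 cells (T-type), of mixed form in 5 cells (M-type) and lacking in 5 cells (NR).

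Calcineurin is a phosphatase that calcium and calmodulin switch on. It consists of a catalytic subunit, made from *Ppp3ca*, *Ppp3cb* or *Ppp3cc*, and a calcium-binding regulatory subunit, in most tissues the product of *Ppp3r1*. Active calcineurin removes phosphates from the factors encoded by *Nfatc1* to *Nfatc4*, which then enter the nucleus, while the product of *Nfat5* lacks the calcineurin docking region and is known for the response to high salt. RCAN proteins bind calcineurin and modulate it, and in astrocytes the pathway is known from inflammatory activation.

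Every cell was 1 library, and neither the labels nor the study's methods say which cells came from the same pup or culture. A type was therefore treated as 1 sample, and no test, p-value or standard error between types is given. The SD is that over the cells of a type. Total counts ran from 2937786 to 22131076 reads per cell. The reads had been amplified and carried no molecular identifiers, so the 95% intervals given for counts cover counting error only. Counts were divided by each cell's size factor. The level given for a type is the mean of these normalized counts over its cells. All 12 astrocyte markers examined had reads in every type. Their sum was 4874 to 24111 CPM, the reads of the markers scaled to a fixed library total. *Vim*, also made by fibroblasts, had a median of 105825 normalized counts, against 9929 for *Slc1a3* and 316.5 for *Gfap*. *S100b* was read in 16 of 22 cells and *Aldoc* in 21. The lowest cell had 1.296 of *Gfap*, 2.592 of *Slc1a2*, 7.253 of *Aqp4* and 0.7421 of *Aldh1l1*, but 867.2 of *Slc1a3* and 388.5 of *Sox9*. The sum therefore does not show each marker in each cell. Of the markers of other cells, *Sox10* of the oligodendrocyte lineage, *Slc17a7* of excitatory neurons, *Cldn5* and *Cdh5* of endothelium and *Rgs5* of pericytes were at 0 in all 22 cells. Other genes of these lists were read, and the sums were 32.2 to 3329 CPM for the oligodendrocyte lineage (7 of 8 genes read, highest in J163_18), 31.7 to 7410 CPM for mural cells and fibroblasts (7 of 8 genes, highest in J155_9), 27.9 to 259 CPM for neurons (7 of 8 genes) and 0 to 200 CPM for endothelium (4 of 6 genes). Microglial markers summed to 0 to 118 CPM, with the highest values in the NR cells J186_5 and J183_1 and in the T-type cell J164_19. Markers of replication and mitosis reached 8548 CPM in the S-type cell J151_5, 7575 CPM in the S-type cell J150_3 and 5229 CPM in the T-type cell J165_23, against 44.9 to 2077 CPM elsewhere. T-type cells had the fewest genes with a read, 6319 to 10614, against 9272 to 13070 in the other types. Within T-type, J162_16 had reads of only 3 of the 10 genes and J163_18 was the smallest library. The part that marker levels, depth and gene number had in the differences below was not tested.

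Per kilobase of exon, averaged over the 22 cells, *Rcan2* had the highest level of the 10 genes at 626 normalized counts per kilobase. *Ppp3r1* followed at 305, *Ppp3ca* at 301 and *Rcan1* at 301, and *Ppp3cb* had 82.9. The factors were lower, with *Nfat5* at 69.4, *Nfatc3* at 44.5, *Nfatc1* at 8.44, *Nfatc2* at 3.66 and *Nfatc4* at 0.0327 normalized counts per kilobase. With the longest transcript as the length in place of all exons, the order of *Ppp3ca*, *Rcan1* and *Ppp3r1* became 632, 400 and 344, and the order of the other 7 genes was kept. *Ppp3ca* and *Rcan2* had reads in all 22 cells. *Nfatc4* had 4 reads in total, 3 in the S-type cell J151_5 and 1 in the NR cell J187_6, and it did not pass the filter of a read in at least 5 cells that 9 of the 10 genes passed.

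**Figure D1:**
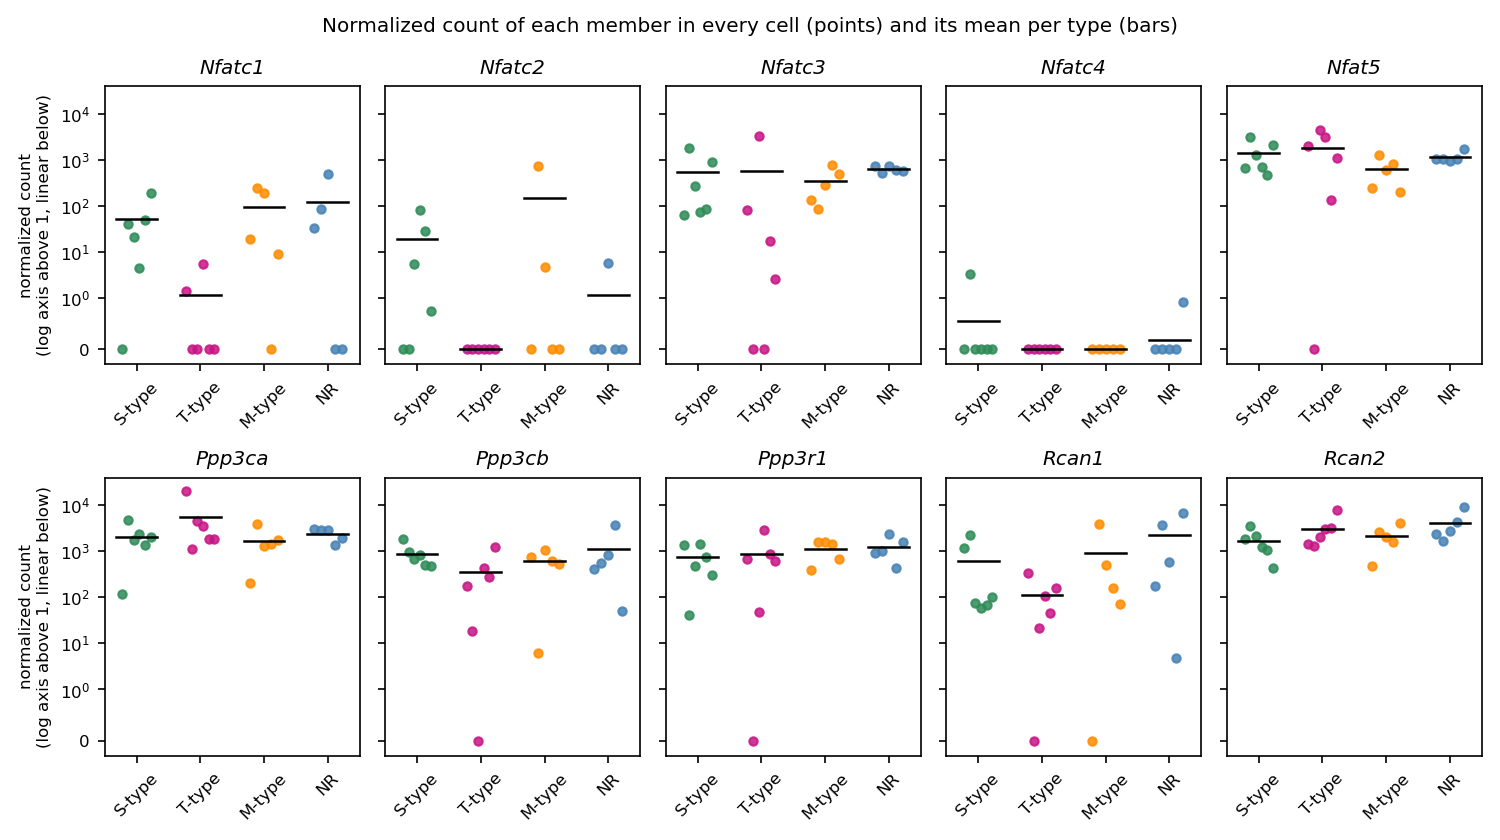
Normalized count of the 10 genes in each of the 22 cells, by response type, on an axis that is logarithmic above 1 and linear below. Points are cells and bars are means over the cells of a type. *Nfatc1* and *Nfatc2* lie at or near 0 in T-type, *Nfatc3* lies between 504 and 727 in all 5 NR cells, and *Rcan1* spreads from 4.78 to 6938 within NR.

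A gene was called 2-fold apart when the levels of a pair of types differed by a factor of at least 2. Between T-type and S-type, 5 of the 9 genes were called, 1 higher and 4 lower in T-type. This compares with 58.2% of all 12517 genes with a ratio in that contrast, so the share of the pathway genes was near the background. Between S-type and NR, 4 of 9 were called against a background of 47.6%. Between T-type and NR, 4 of 9 were called against 61.2%, and between M-type and NR, 2 of 9 were called against 47.9%. A stricter call required that the ratio stay 2-fold in the same direction with every cell left out in turn. It left *Nfatc1*, *Nfatc2* and *Rcan1*, all lower in T-type than in S-type, against a background of 25.2% (19.1% lower). It left *Nfatc2*, higher in S-type than in NR, against 19.2%. It left *Nfatc1* and *Rcan1*, both lower in T-type than in NR, against 25.5% (17.2% lower), and none of the 9 between M-type and NR, against 18.5%. *Nfatc2* was read in 7 cells, 4 of them S-type, and passed the filter of 5 cells only through S-type. Its calls as higher in S-type are therefore not independent of the filter. The study had already reported *Nfatc1* as higher in S-type than in T-type. In no contrast did the cells of the types compared stand apart without overlap for any of the 9 genes, which held for 0.783%, 0.412%, 1.01% and 0.602% of all genes in the contrasts T-type with S-type, S-type with NR, T-type with NR and M-type with NR. The median log2 ratio of the 9 genes was 0.05, −0.36, −0.56 and −0.84 in the same order, and that of all genes −0.09, 0.03, −0.07 and −0.20. The 3 contrasts with NR share its cells, and the S-type and T-type cells each enter 2 contrasts.

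**Figure D2:**
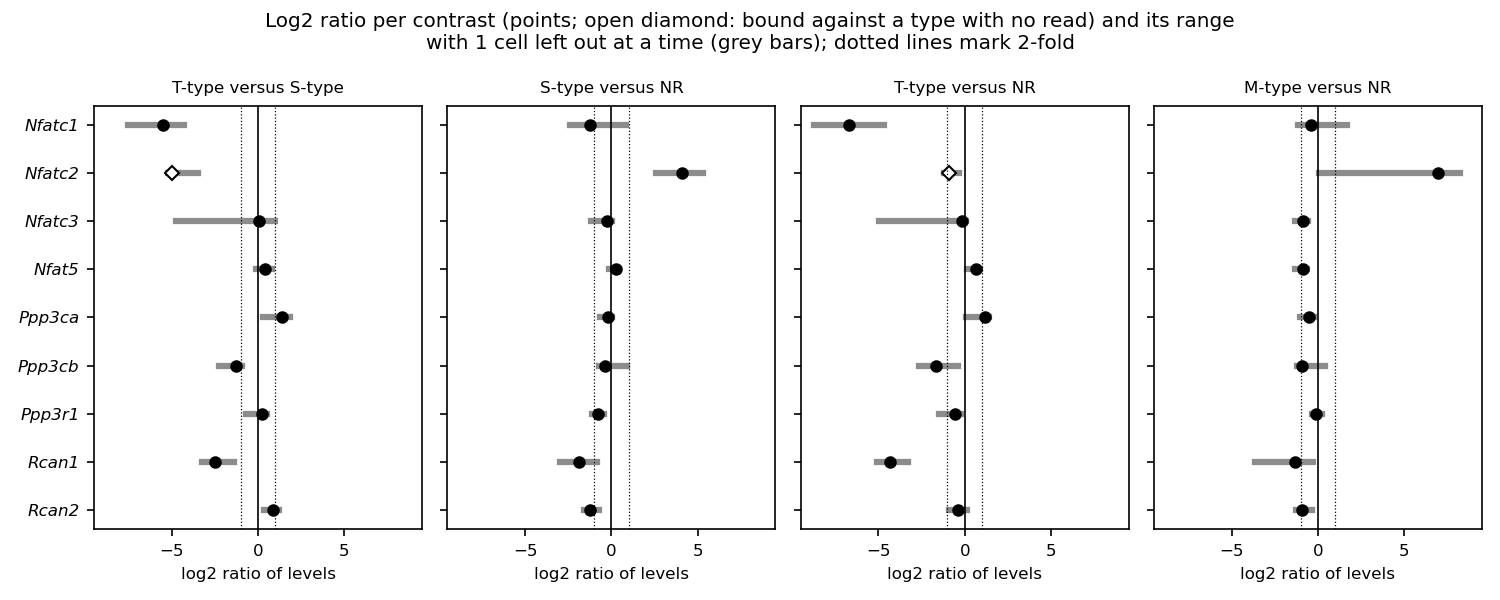
Log2 ratio of the type levels in the 4 contrasts, for the 9 genes that passed the filter. Points are ratios over all cells, open diamonds are bounds where the first type had no read, grey bars span the ratios with 1 cell left out at a time, and dotted lines mark 2-fold. The bars of *Nfatc1* and *Rcan1* stay beyond 2-fold on the lower side in both T-type panels, and that of *Nfatc3* in T-type versus S-type runs from −4.76 to 0.99.

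Among the factors, *Nfatc1* (ENSMUSG00000033016), best known from lymphocytes and osteoclasts, was hardly read in T-type. The 6 T-type cells held 4 reads of it (95% interval 1.09 to 10.2), 1 in J161_9 and 3 in J164_19. S-type held 401 reads in 5 of 6 cells, M-type 807 in 4 of 5 and NR 883 in 3 of 5. The levels were 1.15 ± 2.19 normalized counts in T-type (SD, n = 6 cells), 51.5 ± 72.6 in S-type (n = 6), 92.8 ± 116 in M-type (n = 5) and 121 ± 209 in NR (n = 5). Cells without a read occurred in all 4 types, so the types overlapped.

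In S-type, the normalized counts of *Nfatc1* ran from 0 over a median of 30.7 to 194 in J156_16. In M-type they were 18.8, 247, 189, 0 and 9.07 in J172_23, J173_25, J174_13, J175_18 and J176_25. In NR they were 33.4, 83.4, 490, 0 and 0 in J182_2, J183_1, J185_4, J186_5 and J187_6. Each type had 1 or 2 cells far above the rest, and J185_4 held 80.7% of the NR level. The log2 ratio of T-type to S-type was −5.49 (95% counting interval −7.37 to −4.12) and lay between −7.51 without J164_19 and −4.32 without J156_16. That of T-type to NR was −6.72 (−8.60 to −5.36), from −8.75 without J164_19 to −4.67 without J185_4. Between S-type and NR the ratio was −1.24, and it became 0.82 without J185_4, −2.41 without J156_16, −0.97 without J150_3 and −0.99 without J154_8. Between M-type and NR it was −0.39, with 1.67 without J185_4 and −1.16 without J173_25. After all cells had been thinned to 2937786 reads, *Nfatc1* was still read in 12 of 16 cells of the other types and in 1 of 6 T-type cells, beside the lower gene number of T-type given above.

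*Nfatc2* (ENSMUSG00000027544, chromosome 2, 168476410 to 168601657 on GRCm38), a further calcineurin-dependent factor, had no read in the 6 T-type cells. The S-type cells J153_6, J154_8, J155_9 and J156_16 had 9, 94, 36 and 1 reads, and J150_3 and J151_5 had none. The NR cell J185_4 had 8 reads, and the other 4 NR cells had none. In M-type, J173_25 had 1034 reads and J174_13 had 10. A single cell thus held 99.4% of the M-type level, 146 ± 323 normalized counts (SD, n = 5). With the T-type level set to the floor of 3 reads over the type, the S-type level of 19.5 ± 32.7 (SD, n = 6) was at least 31.3-fold higher, a log2 ratio of T-type to S-type of −4.97. This bound came to −3.47 without J154_8, which held 70.5% of the S-type level, and to −2.86 after thinning. S-type exceeded NR (1.15 ± 2.57, n = 5) by 4.08 on the log2 scale (3.06 to 5.32), with 2.58 without J154_8 and 5.32 without J185_4. The M-type ratio to NR, 6.98, came to 0.03 without J173_25 and to 8.23 without J185_4.

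*Nfatc3* (ENSMUSG00000031902, chromosome 8, 106058840 to 106130537), the calcineurin-dependent factor with the most reads in these cells, was read in 20 of 22 cells. NR had 630 ± 95.4 normalized counts, T-type 557 ± 1315, S-type 539 ± 711 and M-type 352 ± 282 (SD, n = 5, 6, 6 and 5). The means of S-type, T-type and NR were close together, but the cells behind them were not alike. The T-type cells J161_9, J162_16, J163_18, J164_19, J165_23 and J166_25 had 80.2, 0, 3240, 0, 16.8 and 2.56 normalized counts. The small library J163_18 held 97.0% of the level with 594 reads, and the T-type median was 9.71. Without J163_18 the log2 ratio to S-type moved from 0.05 to −4.76 and that to NR from −0.18 to −4.98, and the remaining T-type cells, at no more than 80.2, lay below every NR cell.

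The NR cells had nearly the same amount of *Nfatc3*, with 727, 504, 723, 614 and 582 normalized counts in J182_2, J183_1, J185_4, J186_5 and J187_6. The SD was 0.151 of the mean, whereas M-type had 0.799, S-type 1.32 and T-type 2.36. Of the 7972 genes that had an NR level of at least 100, 0.125% had a smaller ratio of SD to mean in NR, and the median of these genes was 0.944. The S-type values ran from 63.9 over a median of 178 to 1834 in J151_5, without which the ratio of S-type to NR moved from −0.23 to −1.17. The M-type values were 135, 84.7, 284, 772 and 486 in J172_23, J173_25, J174_13, J175_18 and J176_25. M-type lay below NR with a log2 ratio of −0.84 (−0.90 to −0.78), and without J175_18 every M-type cell lay below every NR cell, with a ratio of −1.35. The annotation places *Esrp2* on the opposite strand, with 219 exon bases shared with *Nfatc3*. Since the use of strand in the counting is not stated, reads from these bases cannot be told apart.

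*Nfat5* (ENSMUSG00000003847, chromosome 8, 107293470 to 107379517), the tonicity-responsive factor, had the most reads per kilobase of the 5 factors and was read in 21 of 22 cells. The T-type cell J162_16 was the exception. T-type had 1806 ± 1754 normalized counts, S-type 1391 ± 1047, NR 1151 ± 314 and M-type 623 ± 444 (SD, n = 6, 6, 5 and 5), and only the step from NR to M-type was larger than the SD of both. With the mean over all cells as the level, no contrast reached 2-fold. The largest ratio in size was then that of M-type to NR, −0.89 (−0.94 to −0.84). Without J173_25 (1284) it was −1.33, and the other M-type cells, at 243, 594, 792 and 202, all lay below the lowest NR cell. With the mean of log2 values, T-type turned to −1.46 against S-type and −1.48 against NR, and M-type had −1.18 against NR. The medians of all genes with log2 values were −1.12, −0.97 and −0.04 in the same order. J162_16, with no read, enters the T-type mean of log2 values, and its part in the turn was not tested. The NR cells had 1027, 1039, 929, 1056 and 1706 in J182_2, J183_1, J185_4, J186_5 and J187_6. Their SD was 0.273 of the mean, and 1.23% of the genes at this level had a smaller value. In T-type the values were 2014, 0, 4484, 3090, 137 and 1114 in J161_9, J162_16, J163_18, J164_19, J165_23 and J166_25, and in S-type they ran from 458 over a median of 991 to 3161.

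**Figure D3:**
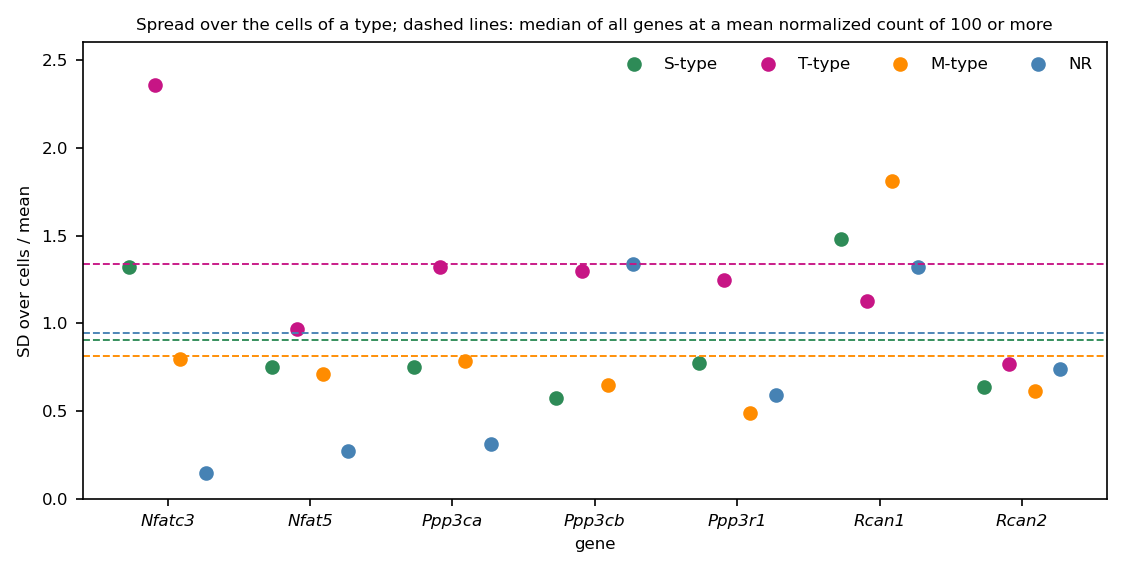
SD over the cells of a type divided by the mean, for the 7 genes with a level of at least 100 normalized counts in all 4 types. Dashed lines give the median over all genes at that level in each type. In NR, *Nfatc3* (0.151), *Nfat5* (0.273) and *Ppp3ca* (0.313) lie far below the NR line at 0.944, whereas *Ppp3cb* and *Rcan1* lie above it.

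*Ppp3ca* (ENSMUSG00000028161, chromosome 3, 136670124 to 136937727) codes for the calcineurin catalytic subunit that prevails in brain. T-type had the highest level, 5507 ± 7262 normalized counts, before NR with 2421 ± 757, S-type with 2093 ± 1576 and M-type with 1693 ± 1329 (SD, n = 6, 5, 6 and 5). The T-type cell J161_9 had 20115, and the other 5 T-type cells had 1139, 4467, 3568, 1863 and 1892 in J162_16, J163_18, J164_19, J165_23 and J166_25. The log2 ratio of T-type to S-type, 1.40 (1.37 to 1.43), came to 0.30 without J161_9, and that to NR, 1.19 (1.16 to 1.21), came to 0.10. The 2-fold call in both contrasts therefore rested on J161_9. With CPM in place of normalized counts, the ratios were 0.83 to S-type and 0.55 to NR, both below 2-fold. S-type cells ran from 118 in J150_3 over a median of 1906 to 4884 in J151_5. M-type had 203, 3837, 1281, 1414 and 1729 in J172_23, J173_25, J174_13, J175_18 and J176_25. In NR, where the values were 3095, 2828, 2931, 1355 and 1895 in J182_2, J183_1, J185_4, J186_5 and J187_6, the SD was 0.313 of the mean, and 2.04% of the genes at this level had a smaller value.

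*Ppp3cb* (ENSMUSG00000021816, chromosome 14, 20499364 to 20546573), for the alternative catalytic subunit, was lowest in T-type. Its level was 359 ± 467 in T-type, 604 ± 393 in M-type, 878 ± 505 in S-type and 1123 ± 1506 in NR (normalized counts, SD, n = 6, 5, 6 and 5). The T-type cells had 179, 18.1, 0, 432, 273 and 1253 in J161_9, J162_16, J163_18, J164_19, J165_23 and J166_25. The S-type cells ran from 468 over a median of 752 to 1838 in J150_3, so that only J166_25 among the T-type cells overlapped with them. The log2 ratio of T-type to S-type was −1.29 (−1.35 to −1.22), −2.28 without J166_25 and −0.93 without J150_3. NR had 406, 548, 843, 3770 and 51.0 in J182_2, J183_1, J185_4, J186_5 and J187_6, and J186_5 held 67.1% of the level. The ratio of T-type to NR was −1.64, and it came to −0.36 without J186_5 and to −2.64 without J166_25. M-type had 764, 6.30, 1083, 624 and 542 in J172_23, J173_25, J174_13, J175_18 and J176_25.

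*Ppp3cc*, for the catalytic subunit best known from testis, is not among the 10 genes but completes the set of catalytic subunits. T-type had 28 reads of it in 4 of 6 cells, against 719 in S-type, 4540 in M-type and 1870 in NR. The log2 ratio of T-type to S-type was −4.59, from −5.16 to −3.51 with 1 cell left out, and that of T-type to NR was −5.76, from −6.32 to −4.50. Within a cell, the shares of the catalytic subunit genes per kilobase do not depend on the size factor. *Ppp3ca* had a median share of 92.4% in T-type (56.4% to 100%), 72.7% in NR (22.6% to 96.3%), 66.5% in S-type (5.35% to 72.8%) and 65.7% in M-type (2.26% to 92.1%). Its share was above 80% in 5 of 6 T-type cells, in none of the 6 S-type cells, in 1 of 5 M-type cells and in 1 of 5 NR cells. *Ppp3cc* had below 2% in 6 of 6 T-type cells, in 1 of 6 S-type cells, in 2 of 5 M-type cells and in 1 of 5 NR cells. The S-type cell J150_3 and the NR cell J186_5 had mostly *Ppp3cb*, at 94.4% and 71.2%, and the M-type cell J172_23 had mostly *Ppp3cc*, at 88.1%. These shares were examined after the values of the single genes had been seen.

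**Figure D4:**
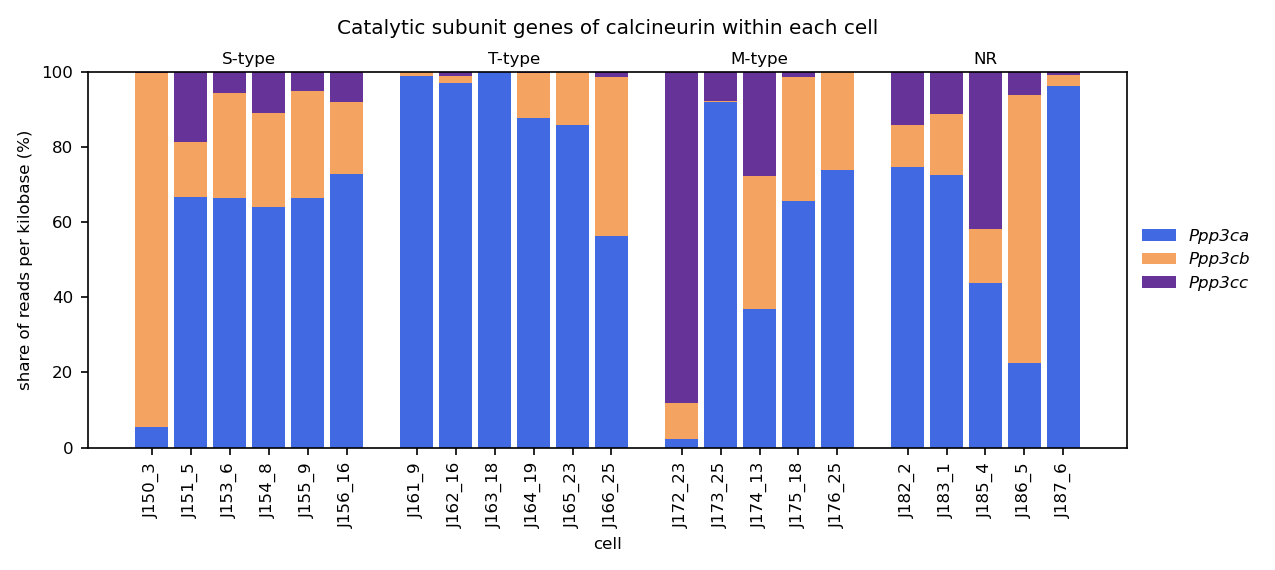
Share of *Ppp3ca*, *Ppp3cb* and *Ppp3cc* in the reads per kilobase of the 3 catalytic subunit genes, as stacked bars for each of the 22 cells. *Ppp3ca* takes 56.4% to 100% in the T-type cells and lies below 50% in 1 S-type, 2 M-type and 2 NR cells. *Ppp3cb* lies above 50% in 1 S-type and 1 NR cell, and *Ppp3cc* in 1 M-type cell.

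*Ppp3r1* (ENSMUSG00000033953, chromosome 11, 17159263 to 17200375), for the calcium-binding regulatory subunit, was read in 21 of 22 cells. With the mean over all cells as the level, it was not 2-fold apart in any contrast. With the mean of log2 values, T-type had −1.24 against S-type and −2.48 against NR, S-type −1.24 against NR and M-type −0.11 against NR. The medians of all genes with log2 values were −1.12, −0.97, 0.13 and −0.04 in the same order. The T-type mean of log2 values includes J162_16, which had no read of *Ppp3r1*, and the part of this cell was not tested. NR had 1269 ± 753 normalized counts, M-type 1149 ± 565, T-type 862 ± 1076 and S-type 734 ± 570 (SD, n = 5, 5, 6 and 6), and no neighbours in this order differed by more than the SD. T-type had 683, 0, 49.1, 2933, 895 and 610 in J161_9, J162_16, J163_18, J164_19, J165_23 and J166_25. The S-type values ran from 41.2 in J151_5 over a median of 625 to 1447. M-type had 400, 1589, 1608, 1461 and 688 in J172_23, J173_25, J174_13, J175_18 and J176_25, and NR had 926, 998, 2396, 431 and 1593 in J182_2, J183_1, J185_4, J186_5 and J187_6. The ratio furthest from 0 was that of S-type to NR, −0.79 (−0.84 to −0.74), from −1.10 without J154_8 to −0.43 without J185_4. Leaving out J164_19, which held 56.7% of the T-type level, moved the ratio of T-type to NR from −0.56 to −1.50 and that to S-type from 0.23 to −0.71. *Wdr92* lies on the same strand and shares 462 exon bases with *Ppp3r1*, so reads from these bases are uncertain.

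*Rcan1* (ENSMUSG00000022951, chromosome 16, 92391953 to 92470867, minus strand) codes for the regulator whose short form is a classic transcriptional target of NFAT. Its values within NR were 174.8, 3696, 591, 4.78 and 6938 normalized counts in J182_2, J183_1, J185_4, J186_5 and J187_6. In T-type the values were 345, 0, 21.8, 109, 44.7 and 159 in J161_9, J162_16, J163_18, J164_19, J165_23 and J166_25. All 6 T-type cells were thus low, and cells as low were found in each of the other types. S-type ran from 59.6 over a median of 87.2 to 1159 in J150_3 and 2299 in J151_5, and M-type had 0, 3874, 498, 155.6 and 70.4 in J172_23, J173_25, J174_13, J175_18 and J176_25.

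The *Rcan1* levels were 113 ± 128 in T-type, 627 ± 927 in S-type, 920 ± 1663 in M-type and 2281 ± 3007 in NR (SD, n = 6, 6, 5 and 5), and no neighbours in this order differed by more than the larger SD. The log2 ratio of T-type to NR was −4.33 (−4.45 to −4.22), from −5.09 without J161_9 to −3.30 without J187_6. That of T-type to S-type was −2.47 (−2.59 to −2.35), −1.37 without J151_5 and −3.23 without J161_9. With the median over cells as the level it was −0.18, which is no longer 2-fold. With both J150_3 and J151_5 left out, the S-type cells with the most reads of replication and mitosis markers, it turned to 0.58. S-type to NR had −1.86 and M-type to NR −1.31, and leaving out J187_6 brought these to −0.83 and −0.28. Leaving out J151_5 brought the S-type ratio to −2.96, and the M-type ratio was −3.66 without J173_25 and −0.99 without J172_23.

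*Rcan1* is transcribed from alternative starts, and NFAT acts at the downstream start. Both 250-base windows before its RefSeq starts on GRCm38.p6 are shown, since a count per gene adds up the transcripts of both and the values above cannot be assigned to either. They are written 5′ to 3′ on the minus strand, and capitals mark GGAAA, the core that NFAT proteins recognise, or its reverse complement TTTCC. The upstream window is chr16:92466170-92466419 and the downstream window is chr16:92400079-92400328.
Rcan1 upstream start: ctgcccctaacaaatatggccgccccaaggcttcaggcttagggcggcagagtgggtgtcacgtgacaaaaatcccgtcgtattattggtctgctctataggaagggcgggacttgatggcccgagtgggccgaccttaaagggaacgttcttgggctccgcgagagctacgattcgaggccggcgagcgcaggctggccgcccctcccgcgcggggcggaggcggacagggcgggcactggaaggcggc
Rcan1 downstream start: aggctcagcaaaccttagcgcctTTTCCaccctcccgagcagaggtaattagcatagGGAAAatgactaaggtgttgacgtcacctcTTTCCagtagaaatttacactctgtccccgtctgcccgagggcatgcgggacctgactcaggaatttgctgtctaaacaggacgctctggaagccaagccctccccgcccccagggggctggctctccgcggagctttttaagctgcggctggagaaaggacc
The upstream window held no match and the downstream window held 3, all in the part further from the start. Of all 32851 RefSeq windows of this length, 55.6% held at least 1 match on either strand, 21.4% at least 2 and 6.39% at least 3. Windows were at hand for 8 of the 10 genes, and those of *Nfatc2*, *Nfatc4* and *Ppp3cb* also held up to 3 matches. A match is a run of letters and not a measured binding site.

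*Rcan2* (ENSMUSG00000039601, chromosome 17, 43801351 to 44039516), for the RCAN form best known from brain and thyroid hormone-responsive tissue, was read in every cell. NR had 4066 ± 3001 normalized counts, T-type 3117 ± 2402, M-type 2184 ± 1339 and S-type 1709 ± 1090 (SD, n = 5, 6, 5 and 6), and the neighbours in this order differed by less than the SD. NR had 2400, 1682, 2717, 4404 and 9129 in J182_2, J183_1, J185_4, J186_5 and J187_6. The S-type values ran from 442 in J156_16 over a median of 1529 to 3582, and the T-type values from 1273 over a median of 2535 to 7743 in J166_25. S-type had a log2 ratio of −1.25 to NR (−1.28 to −1.22), and it came to −0.71 without J187_6. M-type had 484, 2640, 2050, 1627 and 4120 in J172_23, J173_25, J174_13, J175_18 and J176_25. *Rcan2* did not follow *Rcan1* in T-type, where *Rcan1* had its lowest level of the 4 types and *Rcan2* its second highest. In the reads per kilobase of both genes within a cell, the median share of *Rcan2* was 97.6% in T-type, 88.1% in M-type, 83.6% in S-type and 76.4% in NR. These shares overlapped, with 74.7% to 100% in T-type and 24.3% to 99.8% in NR.

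Over the 22 cells, the 8 genes with reads in at least 11 cells gave 28 pairs, and the Spearman correlation was above 0 in 23 of them with a median of 0.20. All values of a cell share its library and size factor, so these correlations are descriptions. *Nfat5* and *Ppp3ca* had the highest correlation, 0.75, although Pearson's r of their log2 values was 0.36. The cell J162_16, with no read of *Nfat5* and 1139 normalized counts of *Ppp3ca*, takes part in this pair. *Ppp3ca* and *Ppp3cb* had the lowest correlation, −0.40. The correlation was 0.53 between *Ppp3r1* and *Rcan1* and 0.32 between *Rcan1* and *Rcan2*. Among all 10492 genes with reads in at least 11 cells and a mean normalized count of at least 10, *Ppp3ca* was the gene most like *Nfat5* by Spearman correlation, but number 2553 by Pearson's r of log2 values. The genes most like *Ppp3ca* were *Ell2* (correlation 0.84) and *Il18* (0.77), those most like *Nfatc3* were *Nceh1* (0.84) and *Tgfbrap1* (0.82), and those most like *Nfatc1* were *5330426P16Rik* (0.85) and *Helq* (0.81). *Ppp3cb* was followed most closely by *Pygo2* (0.81) and *Papolg* (0.80), and *Ppp3r1* by *Gpsm2* (0.80) and *Dnalc4* (0.78). For *Rcan1* these were *Add3* (0.77) and *Fat3* (0.77), for *Rcan2* *Atp6v1a* (0.79) and *Slc25a11* (0.73), and for *Nfat5* *Pafah1b1* (0.74) came second. By Pearson's r, *Add3* and *Tgfbrap1* ranked 1, while the ranks of the other genes named, apart from *Ppp3ca*, ran from 2 to 305.

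The other genes of the pathway were followed as lists. Of 8 genes of calcium entry and release upstream of calcineurin, 6 were at least 2-fold lower in T-type than in S-type and none higher, with a median log2 ratio of −2.12. The background was 32.5% lower and 25.7% higher. The study had already reported *Stim2* and *Orai2* as higher in S-type than in T-type from these data, so the count partly repeats a known result. Of these 6, 4 stayed 2-fold lower with every cell left out (background 19.1%), *Stim2*, *Orai2*, *Orai3* and *Itpr1*. Against NR, 5 of 7 were 2-fold lower in T-type (background 32.8%) and none higher (28.4%), with a median of −2.10, and 3 stayed so with every cell left out (17.2%). *Stim2*, a sensor of calcium in the endoplasmic reticulum, had 405 reads in T-type and 6293 in S-type, with a log2 ratio of −3.49 (−4.48 to −3.14 with 1 cell left out). *Orai2*, for a channel subunit that STIM proteins open, had 11 and 561 reads and −5.03 (−5.79 to −4.33), and its ratio of T-type to NR, −1.68, came to −0.87 without J182_2. *Itpr1*, for the IP3 receptor with the most reads here, had a level of 654 ± 1126 in T-type, 2182 ± 1538 in S-type, 1526 ± 410 in M-type and 2808 ± 1837 in NR (SD, n = 6, 6, 5 and 5), while J163_18 had 2776 and the T-type median was 24.2. *Itpr3* had 383 reads in 3 of 5 M-type cells and 2 reads in NR, a log2 ratio of 7.74, and no read in T-type. It was read in 7 cells in all, so it passed the filter only through M-type, where it was high.

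**Figure D5:**
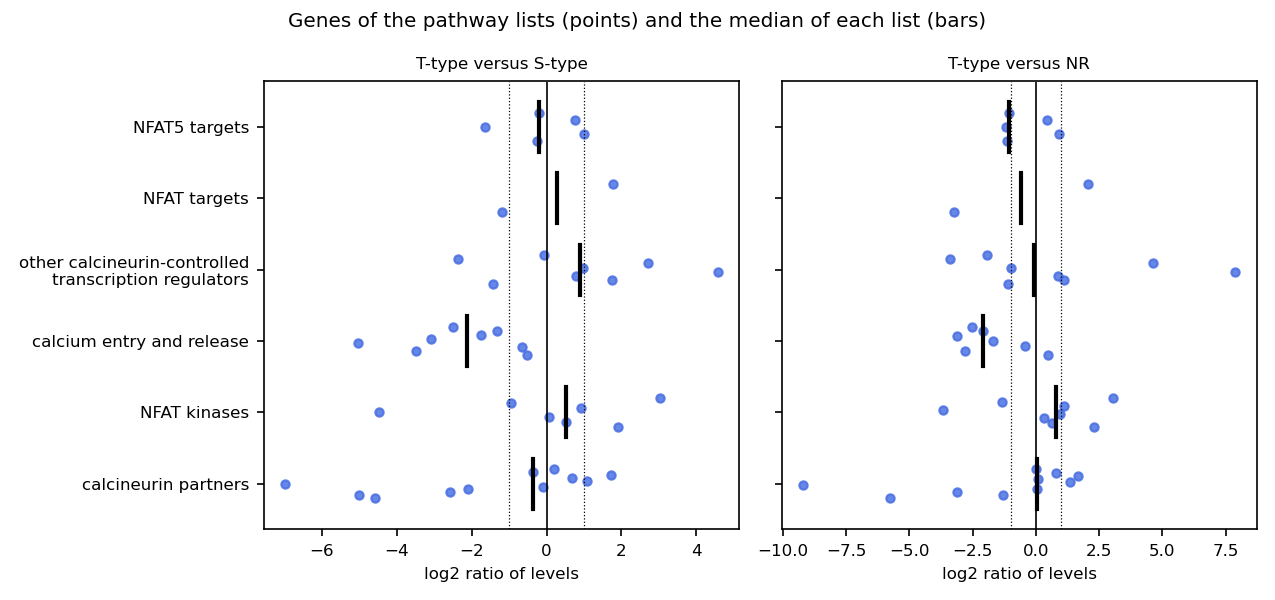
Log2 ratio of the type levels for the pathway genes that were read in 5 cells or more, with S-type on the left and NR on the right as the type T-type is set against. Points are genes, bars are list medians and dotted lines mark 2-fold. Genes of calcium entry and release lie mostly on the lower side in both panels, with medians of −2.12 and −2.10, and the other lists spread to both sides.

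Of 11 partners of calcineurin, 5 were 2-fold lower (background 32.5%) and 2 higher (25.7%) in T-type than in S-type, and the 5 lower ones (*Akap5*, *Ppp3cc*, *Ppp3r2*, *Rcan3* and *Cabin1*) stayed so with every cell left out (background 19.1%). *Akap5*, for a protein that anchors calcineurin at membranes, had 4 reads in T-type, all in J164_19, against 1291 in S-type, 1272 in M-type and 4669 in NR, and its log2 ratio of T-type to NR was −9.19 (−9.98 to −8.25 with 1 cell left out). *Ppp3r2*, for the regulatory subunit known from testis, had 120 reads in 4 of 6 S-type cells, 2 in M-type and none in T-type or NR. It was read in 5 cells in all, so it passed the filter only through S-type, where it was high. Only 2 S-type cells had 5 or more reads, and the S-type median was 0.697 normalized counts. With NR at the floor, the S-type level was 50.1-fold higher. This bound, 5.65 on the log2 scale (5.33 with counting error), came to 4.42 without J151_5. Of 8 kinases that phosphorylate NFAT, 3 were 2-fold higher (background 28.4%) and 2 lower (32.8%) in T-type than in NR, shares near the background. *Csnk1e* had a log2 ratio of 3.04 (2.26 to 3.51 with 1 cell left out) and *Gsk3a* 2.28 (1.04 to 2.53), whereas *Dyrk2* had 23 reads in a single T-type cell and a ratio of −3.68 to NR (−5.10 to −2.89) and −4.48 to S-type (−5.90 to −2.75). *Dyrk2* was sparse in the other types too, with reads in 2 of 6 S-type, 2 of 5 M-type and 3 of 5 NR cells. Its median was 0 in S-type and M-type and 2.99 in NR, and J156_16 held 74.9% of the S-type level.

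Of 9 other transcription regulators under calcineurin, *Mef2a* had the largest ratio of T-type to NR, 7.88 (5.68 to 9.72 with 1 cell left out), with 10345 reads in T-type and 95 in NR. The T-type median of *Mef2a* was 180 normalized counts beside a mean of 2680, since J161_9 had 13162. M-type and S-type also lay above NR, with ratios of 5.66 and 3.31, which were at least 4.31 and 1.90 with any one cell left out. *Mef2d* had 25 reads over all 22 cells, and *Tfeb*, with 48 reads in NR and no read in T-type, was at least 10.4-fold lower there, a log2 bound of −3.38 that came to −2.03 without J185_4. Of 9 genes that NFAT activates in immune cells, 7 did not pass the filter, and 3 of these had no read in any cell. *Ptgs2*, for cyclooxygenase-2, had 46.5 ± 77.8 normalized counts in T-type and 436 ± 556 in NR (SD, n = 6 and 5), a log2 ratio of −3.23 (−4.55 to −2.53 with 1 cell left out). It was read in 2 of 6 T-type cells. In NR, 2 cells had 1102 and 982 beside a median of 79.5, so leaving out 1 cell does not show how far the level rests on both. *Il2*, for a cytokine of T lymphocytes, had reads in 21 of 22 cells, and T-type had 132 ± 89.2 against 31.6 ± 36.9 in NR, a ratio of 2.07 (1.75 to 3.08). The members of this list with a ratio therefore lay on opposite sides. Of 7 genes known as targets of NFAT5, 5 passed the filter, none was 2-fold apart between S-type and NR (background 47.6%), 3 were 2-fold lower in T-type than in NR (32.8%), 1 was higher (25.7%) and 1 lower (32.5%) in T-type than in S-type, and none kept such a call with every cell left out.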

How the data were processed

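RNA of single astrocytes was amplified in 2 rounds as antisense RNA, and stranded TruSeq libraries were sequenced by the authors. They aligned the reads to GRCm38 with STAR and counted uniquely aligned exonic reads per gene symbol with VERSE, a counter derived from HTSeq. The deposited values are these counts as they stand, a column for each cell, not normalized. Tool versions and the use of strand are not given in the sources used here. Summed counts per cell ran from 2937786 to 22131076, with a median of 16965581.

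Size factors were medians of ratios over 3670 genes read in all cells (NumPy 2.4.6, pandas 2.3.3, Python 3.11.15) and ran from 0.183 to 2.31. Normalized counts (count per size factor) were averaged over the cells of a type to give its level. Where a type had no read, 3 reads spread over its cells served as the floor, and no ratio was formed when both types had at most 3 reads. The 12719 genes read in 5 or more cells entered the contrasts, and a 2-fold ratio was called. Count intervals were exact Poisson, and those of ratios came from the exact binomial split of the reads (SciPy 1.17.1), at 95%. The ratio and 2-fold call steps were run on simulated counts with Poisson noise only and no spread between cells. That run therefore does not show how calls behave in cells that differ. The calls with cells left out and the overlap of cells were not part of it. The lowest chi-square per degree of freedom between any of 231 library pairs was 243, so every pair differed by far more than sampling noise. The response row of the table matched the labels for all 22 cells.

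The 10 genes, the pathway lists and the marker lists were chosen with earlier results of these data known. Of a pathway list, the text names genes that stay 2-fold apart in a contrast with every cell left out, at most 3 by size of the ratio, and for each of the 10 genes with reads in at least 11 cells the 2 genes with the highest Spearman correlation. *Orai3*, *Itpr1*, *Rcan3* and *Cabin1* lie outside this rule and were named after their values were seen. Positions, lengths and overlaps came from GENCODE vM21, and promoter windows from RefSeq on GRCm38.p6. Alternatives were TMM factors (edgeR 4.0.16, R 4.3.3), CPM, cells thinned to the smallest library, the median over cells, the mean of log2(normalized count + 1), no filter, detection from 5 reads, the longest transcript as length, Pearson's correlation, and leaving out cells. The shares within a cell, the ratio of SD to mean, and leaving out J162_16 together with J163_18 were added after the data had been seen. Calcium recordings and collection times were not used here.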

Additional observations from a re-analysis of the deposited data

Results flagged for a closer look

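In 15 of 35 combinations of gene and type, the highest cell lay further from the next one than Dixon's 95% limit allows. Chance flags about 1 in 20 groups of normally distributed values, and counts of single cells are skewed towards high values, so the flags describe the spread and name the cells that carry a level. In S-type these were 194 normalized counts of *Nfatc1* in J156_16, 82.3 of *Nfatc2* in J154_8 and 1838 of *Ppp3cb* in J150_3. In T-type they were 5.47 of *Nfatc1* in J164_19, which is 3 reads, 3240 of *Nfatc3* in J163_18, 20115 of *Ppp3ca* in J161_9, 1253 of *Ppp3cb* in J166_25, 2933 of *Ppp3r1* in J164_19 and 7743 of *Rcan2* in J166_25. In M-type, J173_25 had both, with 724 of *Nfatc2* and 3874 of *Rcan1*. In NR, J185_4 had 490 of *Nfatc1* and 5.75 of *Nfatc2*, J187_6 had 1706 of *Nfat5*, and J186_5 had 3770 of *Ppp3cb*. The 15 values came from 11 cells, and J164_19, J166_25, J173_25 and J185_4 had 2 each.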

How the results depend on the processing

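Leaving out each cell in turn moved the number of genes called 2-fold apart, of 9, from 5 to between 4 and 6 for T-type versus S-type, from 4 to between 2 and 5 for S-type versus NR, for T-type versus NR it moved from 4 to between 3 and 5, and for M-type versus NR from 2 to between 1 and 4. The number without overlap between cells, 0 over all cells, lay between 0 and 1 for T-type versus S-type, T-type versus NR and M-type versus NR, and stayed at 0 for S-type versus NR. It was 1 for T-type versus S-type without J150_3 and J151_5, and 1 for T-type versus NR both without the smallest library and without J162_16 and J163_18. With the mean of log2 values as the level, 8 genes were 2-fold apart between T-type and S-type and 4 between M-type and NR, with −1.12 as the median of all genes in T-type versus S-type (−0.09 for the mean). The share of all genes called under the alternatives is not given here, so these counts cannot be set beside a background. With log2 values, uncalled ratios of T-type to S-type turned for *Nfatc3* (0.05 to −3.90), *Nfat5* (0.38 to −1.46) and *Ppp3r1* (0.23 to −1.24). That of *Nfat5* in T-type to NR turned from 0.65 to −1.48. Directions of called ratios that turned were *Rcan1* in T-type versus S-type (0.58 without J150_3 and J151_5), *Nfatc1* in S-type versus NR (0.16 with log2 values, and between −2.41 and 0.82 with 1 cell left out), *Ppp3ca* in T-type versus NR (−0.05 with medians over cells) and *Nfatc2* in M-type versus NR (−0.32 with medians). The cause was not tested beyond the cells named. *Rcan1* in T-type versus S-type kept its direction but not 2-fold with medians (−0.18). TMM factors, CPM, thinning and the lack of a filter turned the direction of no called ratio. With CPM, *Ppp3ca* lost its 2-fold call in T-type versus S-type (0.83) and in T-type versus NR (0.55). CPM also moved the median of all genes in T-type versus S-type to −0.46 and in T-type versus NR from −0.07 to −0.46. No paired analysis was possible because neither the labels nor the study's methods say which cells came from the same pup or culture. The endings of some cell names recur across types, but what they stand for is not stated. Where a type had no read, as for *Nfatc2* and *Nfatc4* in T-type, depth still allows 3 reads over its cells.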
